A study of Arabidopsis thaliana with 6 samples.

Results

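WRKY75, WRKY6, WRKY42, WRKY45, ZAT6, MYB62 and BHLH32 are 7 Arabidopsis thaliana transcription factor genes that published work ties to phosphate (Pi) supply. They were taken by locus identifier from a deposited table of read counts, and all 7 had a row among the 26800 identifiers used. All 7 also passed the filter on low counts, which left 22818 genes to test. The table compares whole seedlings aged 12 days of the wild-type accession Col-0 (3 libraries) with seedlings of a double mutant labelled vih1vih2 (3 libraries), all grown on 1 agar medium with sucrose. InsP8 is an inositol pyrophosphate made by the kinases VIH1 and VIH2, and by the title of the series it acts as the cell's own Pi signal. The sources used here give neither the mutant alleles nor whether replicate libraries came from separate cultures. The p-values therefore measure the spread between these samples only, and that spread may be technical.

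Plants short of Pi switch on genes for Pi uptake, transport and recycling, largely through the transcription factor PHR1 and its relatives, which SPX proteins hold back when inositol pyrophosphates are bound. The 7 genes act beside that core. WRKY75 and WRKY45 are WRKY factors, named for a conserved peptide in their DNA-binding domain, that promote Pi uptake, WRKY45 through the Pi transporter gene PHT1;1. WRKY6 and WRKY42 are close relatives that repress PHO1, which encodes the exporter that loads Pi into the xylem, and WRKY42 also activates PHT1;1. ZAT6 is a zinc finger repressor that acts in root growth and Pi balance, and also in cold, salt and metal stress. MYB62 is a MYB factor induced by Pi shortage whose overexpression alters gibberellin metabolism. BHLH32 is a basic helix-loop-helix factor reported to repress Pi starvation genes, among them the kinase genes PPCK1 and PPCK2. As TMO5, the same gene is known as a target of the auxin response factor MONOPTEROS that promotes divisions in the young root vasculature.

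WRKY factors bind the W-box, written TTGACC or TTGACT, PHR1 binds the P1BS element, written GNATATNC, and auxin response factors bind TGTCTC. The 250 bases before the annotated start of each gene were read from the RefSeq TAIR10.1 genome and searched on both strands. A W-box was found in 2 of the 7 genes, and 28.4% of the 27443 protein-coding windows of that length hold one, so the share was near the background. P1BS was found in 1 of 7, against 5.46% of all windows, and TGTCTC in 0 of 7, against 10.9%. These are matches of letters, not sites shown to be bound. The genes with a match all rose in the mutant, as did WRKY6, whose window has no match. A tie between matches and changes was not tested. Printed here are the windows with a match and that of BHLH32, which fell. They lie at chr5:4151202-4151451 (minus strand, WRKY75), chr3:327413-327662 (minus strand, WRKY45), chr5:1217363-1217612 (minus strand, ZAT6) and chr3:9369249-9369498 (plus strand, BHLH32). They are written 5′ to 3′, with W-box matches in capitals in the WRKY genes and the P1BS match in capitals in ZAT6. The BHLH32 window has no match to the 3 motifs.
WRKY75: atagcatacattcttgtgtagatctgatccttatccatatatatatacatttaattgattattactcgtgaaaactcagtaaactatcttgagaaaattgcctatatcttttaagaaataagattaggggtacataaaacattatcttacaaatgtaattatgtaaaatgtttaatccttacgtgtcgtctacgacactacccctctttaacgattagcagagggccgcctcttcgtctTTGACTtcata
WRKY45: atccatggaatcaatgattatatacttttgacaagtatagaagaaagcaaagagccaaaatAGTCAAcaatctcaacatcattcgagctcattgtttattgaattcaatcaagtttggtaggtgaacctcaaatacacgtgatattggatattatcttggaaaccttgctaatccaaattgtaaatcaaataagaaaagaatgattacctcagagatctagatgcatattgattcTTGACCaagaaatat
ZAT6: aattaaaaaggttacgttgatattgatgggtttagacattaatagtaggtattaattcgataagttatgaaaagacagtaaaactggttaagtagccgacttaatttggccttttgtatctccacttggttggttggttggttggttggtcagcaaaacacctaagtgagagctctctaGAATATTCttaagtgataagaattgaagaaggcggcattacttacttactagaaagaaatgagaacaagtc
BHLH32: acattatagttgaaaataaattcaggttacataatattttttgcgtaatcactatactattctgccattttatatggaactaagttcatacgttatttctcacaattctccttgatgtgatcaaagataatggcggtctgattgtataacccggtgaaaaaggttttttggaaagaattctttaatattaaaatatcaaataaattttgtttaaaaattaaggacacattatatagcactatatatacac
In WRKY75 the W-box began 11 bases before the start. In WRKY45 a W-box began 15 bases before it, and a further match on the opposite strand began 189 bases before it. The ZAT6 match to P1BS began 71 bases before the start.

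Total counts ranged from 42697387 to 64410871 per library. Levels are given as CPM, counts scaled to a common library size by TMM, which also corrects for differences in composition. Each mean ± SD has n = 3 libraries. Log2 fold changes compare vih1vih2 with wild type and carry their standard error. A gene is said to have risen or fallen where edgeR's quasi-likelihood test gave a Benjamini-Hochberg adjusted p under 0.05 over all genes tested. The mutated genes themselves were counted more often in the mutant libraries, so they do not bear out the labels, and gene-level counts cannot show whether a transcript is intact. VIH2 (AT3G01310) had 2759, 2783 and 2310 counts in wild type and 33783, 35310 and 38660 in vih1vih2, and VIH1 (AT5G15070) had 325, 361 and 246 against 1737, 1524 and 1820. Every direction below rests on those labels. Whole seedlings mix organs, so a change in the cells that express a gene and a change in its RNA per cell cannot be told apart.

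Of the 7 genes, 4 rose (WRKY75, WRKY45, WRKY6 and ZAT6), 1 fell (BHLH32) and 2 were not called (WRKY42 and MYB62). Among all genes tested, 40.9% were called, 21.4% as higher and 19.4% as lower. The groups did not overlap for 5 of the 7, as they did not for 56.4% of all genes tested. With 7 genes these shares describe the set and do not set it apart. The median log2 fold change was 1.08 over the 7 genes and −0.00 over all genes.

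**Figure D1:**
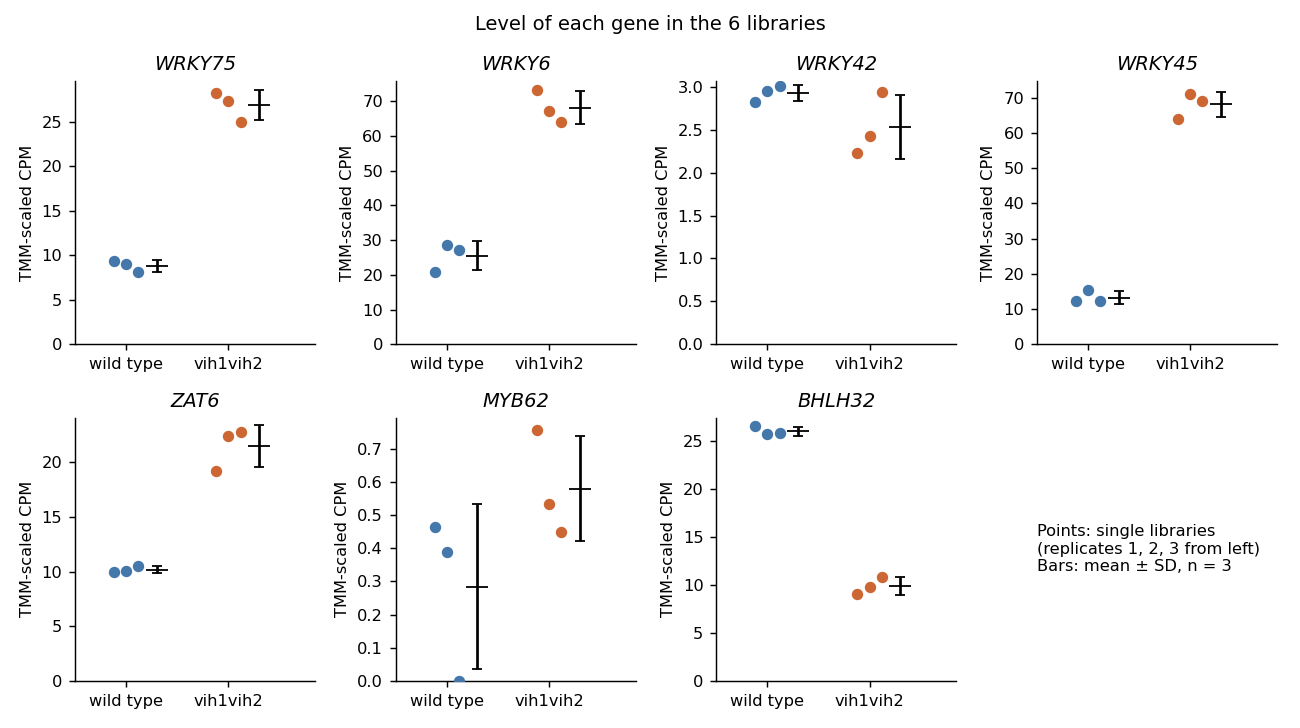
TMM-scaled CPM (vertical axes, each starting at 0) of the 7 genes in each wild-type and vih1vih2 library, with mean ± SD of n = 3. WRKY75, WRKY6, WRKY45 and ZAT6 are higher in all vih1vih2 libraries, BHLH32 is lower in all, and the groups of WRKY42 and MYB62 overlap.

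WRKY45 (AT3G01970, chromosome 3, 325952 to 327412, minus strand, TAIR10.1 coordinates) had the largest change of the 7. Its level was 12.2, 15.4 and 12.2 CPM in wild type 1, 2 and 3 and 64.2, 71.2 and 69.1 CPM in vih1vih2 1, 2 and 3. All vih1vih2 libraries were far above all wild-type libraries. This was a log2 fold change of 2.36 ± 0.12, or 5.14-fold (edgeR adjusted p = 9.86e-05). Of all genes tested, 6.92% had a larger change in either direction.

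WRKY75 (AT5G13080, chromosome 5, 4149738 to 4151201, minus strand) rose as well. It was at 9.41, 8.996 and 8.09 CPM in wild type and 28.3, 27.4 and 25.0 CPM in vih1vih2. Libraries within each group lay close together and the groups did not overlap. WRKY75 thus had a log2 fold change of 1.61 ± 0.10, or 3.04-fold (edgeR adjusted p = 0.000181).

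WRKY75 and WRKY45 belong to the same WRKY group, IIc, and WRKY45 gained more. The ratio of WRKY75 to WRKY45 counts within a library was 0.774, 0.587 and 0.667 in wild type and 0.442, 0.386 and 0.363 in vih1vih2. Every vih1vih2 library had a lower ratio than every wild-type library, 1.70-fold lower on average. The two-sided exact permutation p was 0.1, the smallest that 3 libraries against 3 can give, for each of the 2 ratios tested.

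WRKY6 (AT1G62300, chromosome 1, 23016569 to 23019494, minus strand), a repressor of PHO1 that also acts in leaf senescence and boron shortage, rose. Its level was 20.7, 28.5 and 27.2 CPM in wild type and 73.3, 67.3 and 63.9 CPM in vih1vih2. Wild type 1 was the lowest library, and the groups did not overlap. For WRKY6 the log2 fold change was 1.42 ± 0.14, or 2.68-fold (edgeR adjusted p = 0.00097).

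WRKY42 (AT4G04450, chromosome 4, 2218042 to 2221260, plus strand), the relative of WRKY6 with the same reported target, was not called. It had 2.83, 2.95 and 3.01 CPM in wild type and 2.23, 2.42 and 2.94 CPM in vih1vih2. The library vih1vih2 3 lay within the wild-type range and the other two vih1vih2 libraries below it. The log2 fold change was −0.21 ± 0.14, with a 95% interval from −0.57 to 0.15 (edgeR adjusted p = 0.306). That interval does not reach the value fitted for WRKY6.

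WRKY6 was counted more often relative to WRKY42 in the mutant. The ratio of their counts within a library was 7.11, 9.37 and 8.77 in wild type and 31.5, 26.7 and 21.0 in vih1vih2, so the groups did not overlap. The mean ratio was 3.12-fold higher in vih1vih2, again with a two-sided exact permutation p of 0.1.

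ZAT6 (AT5G04340, chromosome 5, 1216058 to 1217362, minus strand, a gene with 1 exon) rose by the least of the 4. It was at 9.94, 10.03 and 10.5 CPM in wild type and 19.2, 22.4 and 22.8 CPM in vih1vih2. The wild-type libraries were nearly level and all lay below vih1vih2. ZAT6 had a log2 fold change of 1.08 ± 0.10, or 2.11-fold (edgeR adjusted p = 0.000703).

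MYB62 (AT1G68320, chromosome 1, 25603676 to 25605181, plus strand) was barely detected. It had 28, 18 and 0 counts in wild type and 42, 27 and 24 in vih1vih2, or 0.283 ± 0.248 against 0.579 ± 0.158 CPM. By its wild-type libraries alone it would not have passed the filter on low counts, so it was tested through the vih1vih2 libraries. Wild type 3, with no count, stood apart from the other two wild-type libraries, and counting error alone would allow it up to 0.0735 CPM. The log2 fold change was 0.99 ± 0.96, with a 95% interval from −1.41 to 3.38 (edgeR adjusted p = 0.466), and it was 0.44 without wild type 3 and 1.54 without wild type 1. A change of MYB62 was not detectable with counts this few and wild-type libraries this uneven.

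BHLH32 (AT3G25710, chromosome 3, 9369499 to 9371487, plus strand) was the gene that fell. Its level was 26.5, 25.7 and 25.8 CPM in wild type and 8.99, 9.75 and 10.9 CPM in vih1vih2. Both groups were tight and did not overlap. The log2 fold change was −1.396 ± 0.10, or 2.63-fold lower (edgeR adjusted p = 0.000269).

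None of the exons of the 7 genes shared a stretch of 50 bases with another place in the nuclear genome, and no annotated gene overlapped them. Levels were set side by side after division by RefSeq exon length, though the annotation used for counting is not known and may give other lengths. Per kilobase of exon, BHLH32 was first of the 7 in wild type, at 17.0 ± 0.301 CPM. WRKY6, WRKY75 and WRKY45 followed at 11.0 ± 1.80, 10.9 ± 0.836 and 9.75 ± 1.36 CPM per kilobase, with ranges that overlapped. ZAT6 came next at 7.79 ± 0.247, below all libraries of those 3, and then WRKY42 at 1.22 ± 0.0392 and MYB62 at 0.214 ± 0.188 CPM per kilobase.

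In vih1vih2 the order changed. WRKY45 was first at 50.2 ± 2.67 CPM per kilobase. WRKY75 and WRKY6 followed at 33.2 ± 2.09 and 29.4 ± 2.03, with overlapping ranges, and then ZAT6 at 16.4 ± 1.48. BHLH32 was next at 6.47 ± 0.613, above WRKY42 at 1.05 ± 0.153 and MYB62 at 0.437 ± 0.119 CPM per kilobase. Of the summed level of the 7 genes per kilobase, BHLH32 made up 29.5 ± 1.67% in wild type and 4.72 ± 0.477% in vih1vih2, while WRKY45 made up 16.8 ± 1.60% and 36.6 ± 1.57%.

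**Figure D2:**
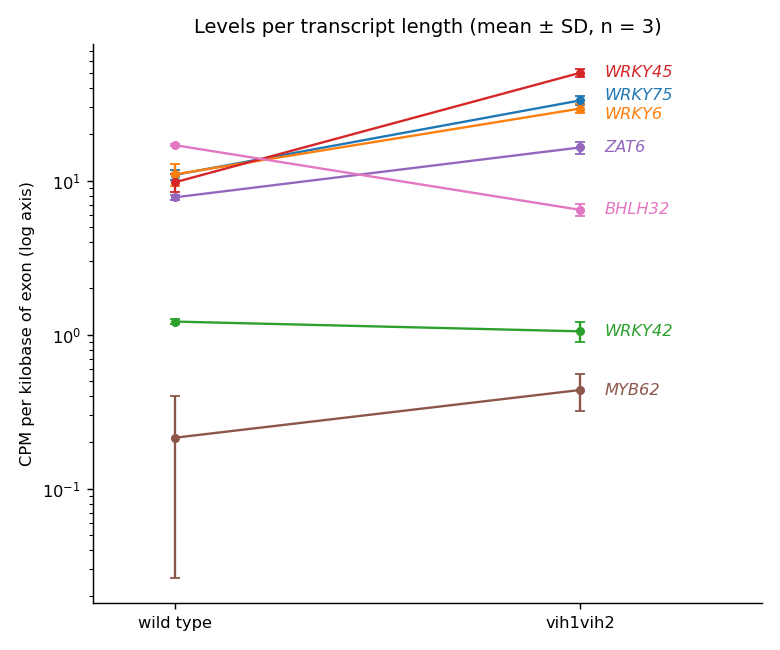
CPM per kilobase of exon (log axis) of the 7 genes in wild type and vih1vih2, as mean ± SD of n = 3 libraries joined by a line for each gene. BHLH32 goes from first, at 17.0, to below ZAT6, at 6.47, while WRKY45 goes from 9.75 to 50.2.

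Genes that published work names as targets of the 7 factors moved both ways. Of 12 such genes, 6 rose and 2 fell, with a median log2 fold change of 0.46, where 21.4% of all genes tested rose and 19.4% fell. PHO1, the xylem exporter repressed by WRKY6 and WRKY42, went from 72.9 ± 8.51 to 120 ± 5.29 CPM (log2 fold change 0.72 ± 0.10). PHT1;1, the Pi transporter activated by WRKY45 and WRKY42, went from 151 ± 12.0 to 295 ± 38.4 CPM (0.97 ± 0.12), and near-identical paralogs may share its reads.

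PPCK1 and PPCK2 encode kinases that activate PEP carboxylase and are reported to be repressed by BHLH32. PPCK1 had 3082, 1694 and 1921 counts in wild type and 9653, 6576 and 8974 in vih1vih2, and rose by 1.81 ± 0.18 on the log2 scale. PPCK2 rose by 0.47 ± 0.14, close to the threshold (edgeR adjusted p = 0.0484), and its call was lost when any 1 of the 6 libraries was left out (0.35 to 0.54 on the log2 scale).

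GSH1, which catalyses the first step of glutathione synthesis and is tied to ZAT6, went from 123 ± 5.38 to 205 ± 4.83 CPM (0.74 ± 0.05). FRK1, a receptor kinase gene activated by WRKY6, went from 1.13 ± 0.340 to 2.82 ± 0.248 CPM (1.32 ± 0.24). RAV1, a transcription factor gene repressed by WRKY6, fell from 143 ± 4.27 to 59.6 ± 0.656 CPM (−1.27 ± 0.05).

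SOC1, a flowering gene tied to MYB62, fell by 0.93 ± 0.21 on the log2 scale. Its call was lost without wild type 3 or without vih1vih2 2, at −0.82 and −0.97, which left RAV1 as the 1 target that fell. Of the targets not called, ICS1, the salicylate synthesis gene tied to WRKY75, was at 0.45 ± 0.33, or 0.74 and past the threshold without vih1vih2 3. The boron exporter gene BOR1, tied to WRKY6, was at 0.23 ± 0.10, and passed the threshold at 0.32 without wild type 1. LOG4, a cytokinin synthesis gene downstream of BHLH32, had only 18 to 44 counts per library and was at 0.29 ± 0.38. CAT2, a catalase gene repressed by WRKY75, had 365, 5303 and 14727 counts in wild type and 1915, 11431 and 1884 in vih1vih2, a spread within groups that gives no usable difference.

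**Figure D3:**
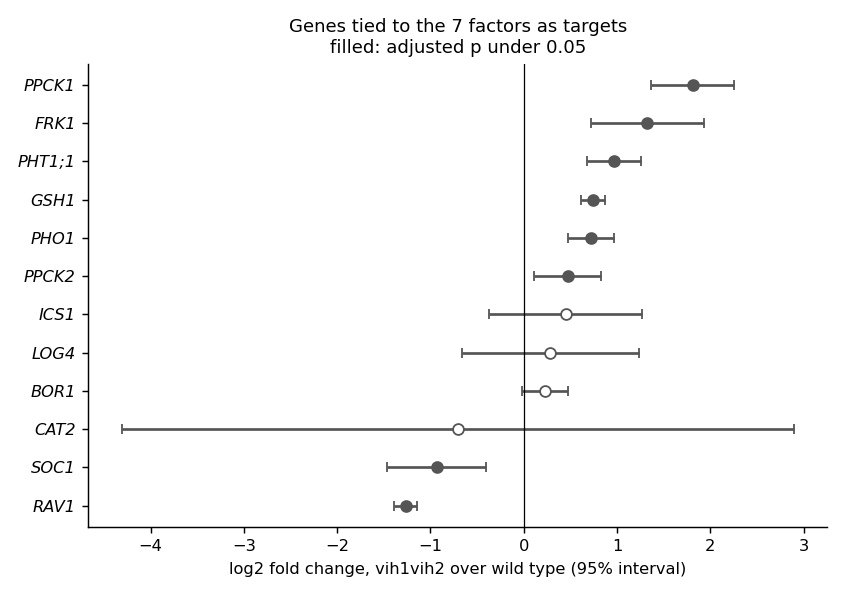
Log2 fold change (horizontal axis, with 95% interval) of 12 genes tied to the 7 factors as targets, filled where the adjusted p was under 0.05. PPCK1 lies highest at 1.81 and RAV1 lowest at −1.27, and the interval of CAT2 spans both.

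Relatives of WRKY75 and WRKY45 were taken from group IIc, and the list may not hold the whole group. Of 14 others tested, 7 rose and 0 fell by edgeR's quasi-likelihood test, with 0 lower also at an unadjusted p under 0.05, by DESeq2 and by limma-voom, and the median log2 fold change was 0.82. Over all genes tested 21.4% rose and 19.4% fell. WRKY8, a stress-responsive member, went from 0.683 ± 0.391 to 6.89 ± 0.850 CPM (3.32 ± 0.46), and WRKY48, known as a regulator of defence, from 3.88 ± 0.627 to 31.1 ± 2.77 CPM (2.999 ± 0.16). WRKY28 and WRKY23 rose by 1.09 ± 0.11 and 0.92 ± 0.15. WRKY59 had no count in wild type and 64, 50 and 20 in vih1vih2, and was at least 41.3-fold higher, set against 3 counts over the wild-type group. WRKY59 passed the filter on low counts only through the vih1vih2 libraries, so once tested it could not have been called lower. WRKY43, WRKY12, WRKY13, WRKY51, WRKY56 and WRKY71, each under 1.5 CPM in both groups, were not called. WRKY57 was not called either, with 1188, 279 and 2842 counts in the vih1vih2 libraries.

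Relatives of WRKY6 and WRKY42 were the genes of group IIb. Of 6 others tested, 1 rose, 1 fell and 4 were not called, and the median was 0.03. With 33.3% called against 40.9% of all genes tested, the list was near the background. WRKY47 rose by 0.66 ± 0.09 and WRKY72, which acts in immunity, fell by 1.23 ± 0.09. WRKY31, in sequence close to both genes, was at 0.22 ± 0.11 and not called.

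The ZAT and AZF genes related to ZAT6, which encode stress-induced zinc finger repressors, moved both ways. Of 10 others tested 6 rose and 2 fell, against 21.4% and 19.4% of all genes tested, with a median of 0.94. AT3G53600 had 16, 0 and 8 counts in wild type and 405, 274 and 287 in vih1vih2 (5.23 ± 0.80), and passed the filter on low counts only through the vih1vih2 libraries. The paralogs AT3G46080 and ZAT7 rose by 4.96 ± 0.38 and 2.89 ± 0.27, and ZAT12, which acts in responses to reactive oxygen, by 1.99 ± 0.13. AZF2 was 2.64-fold higher (edgeR adjusted p = 0.00102). AZF1 fell by 1.42 ± 0.21 and AT2G28200 by 0.46 ± 0.09. ZAT10, a well-known salt-tolerance factor, was at −0.32 ± 0.15 and not called.

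Of 5 listed relatives of MYB62, MYB116 had no row among the counts, so 4 were tested. All 4 rose, against 21.4% of all genes tested, with a median of 3.27. By edgeR, by DESeq2, by limma-voom or at an unadjusted p under 0.05, 0 were lower. MYB2, a factor of drought signalling and late senescence, had 4, 0 and 0 counts in wild type and 883, 719 and 738 in vih1vih2, a ratio of pooled counts of 541 with a 95% counting interval from 211 to 1990. MYB2 passed the filter on low counts only through the vih1vih2 libraries, so once tested it could not have been called lower. MYB108, known from wounding and anther opening, went from 1.46 ± 0.205 to 20.9 ± 1.83 CPM (3.84 ± 0.15). MYB78 and MYB112 rose by 2.70 ± 0.48 and 2.41 ± 0.30. MYB78, with 12, 24 and 31 counts in wild type, would not have passed the filter by those libraries alone either. MYB2 and MYB78 thus entered the test through the group where they are high, so 4 of 4 only describes these genes. MYB62 was at 0.99 ± 0.96, and whether it differs from these 4 was not tested.

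For BHLH32, 13 genes of the vascular module in which it acts as TMO5 were taken. Among them were its activator MONOPTEROS (MP), its dimer partners, its paralogs and its outputs. Of these, 2 rose, 3 fell and 8 were not called, with a median of 0.04. That is 38.5% called, near the 40.9% of all genes tested. MP had 1603, 1374 and 1284 counts in wild type and 3643, 3002 and 3319 in vih1vih2 (1.09 ± 0.09), and LHW, the dimer partner of BHLH32, from 73.4 ± 0.956 to 104 ± 5.90 CPM (0.51 ± 0.06). Both are upstream of or beside BHLH32, which fell. TMO7, also a target of MP, fell by 0.93 ± 0.15, BUD2, a polyamine synthesis gene downstream of the dimer, by 0.73 ± 0.17, and LOG3, a cytokinin synthesis gene, from 1.17 ± 0.302 to 0.401 ± 0.0427 CPM. The paralog T5L1 was at −0.54 ± 0.36 and not called.

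**Figure D4:**
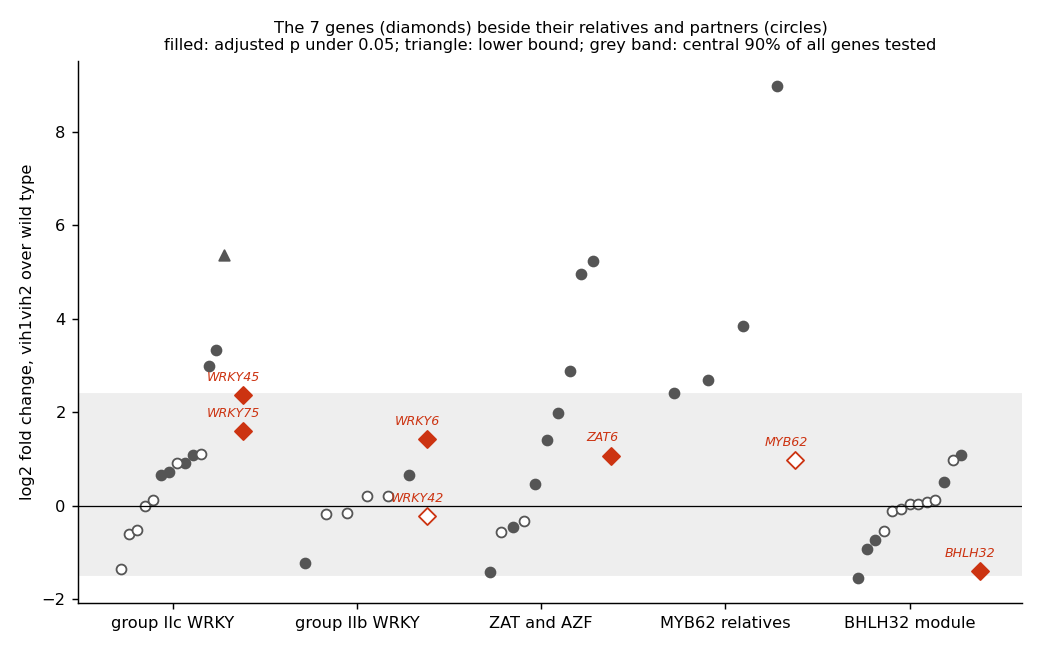
Log2 fold change (vertical axis) of the 7 genes (diamonds) beside their relatives and, for BHLH32, the genes of its module (circles), filled where the adjusted p was under 0.05. The triangle is the lower bound of WRKY59, the value of MYB2 rests on 4 counts in wild type, and the grey band runs from −1.49 to 2.39, the central part of all genes tested.

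Of 10 root markers 1 rose and 3 fell, or 40% called against 40.9% of all genes tested, with a summed level of 130 to 157 CPM in wild type and 123 to 129 CPM in vih1vih2, and none was at 0 in all libraries. The root endodermis gene CASP2 fell by 2.24 ± 0.18, while WOX5, of the root stem cell niche, rose by 0.87 ± 0.22, which did not pass the test when wild type 1 or 3, or vih1vih2 2 or 3, was left out. Of 8 shoot markers 2 rose and 3 fell, or 62.5% called, with a median log2 fold change of −0.01, and none was at 0. Their summed level was 20758 to 21683 CPM in wild type and 10077 to 10353 CPM in vih1vih2, but 99.4% to 99.8% of it came from the photosynthesis genes CAB3, LHCA1 and RBCS1A, the 3 that fell. LHCA1, of the photosystem I antenna, fell by 2.10 ± 0.08, and the guard cell channel gene SLAC1 rose by 1.43 ± 0.11. Their part in the changes of the 7 genes was not tested.

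Other genes shared these profiles. Likeness was measured over the 6 libraries as the distance between log2 profiles, each centred on its own mean, among 15825 genes of at least 5 CPM in 1 group. Nearest to WRKY75 were AT4G39364, a small nucleolar RNA (distance 0.0888), and NAC010, also named SND3, a factor of secondary walls (0.116). Nearest to WRKY6 were AT3G46110 (0.141) and the glutathione transferase gene GSTU6 (0.152). Nearest to WRKY45 were CAN, a calcium-dependent nuclease gene (0.149), and FLR1, which encodes a leucine-rich repeat protein (0.185).

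Nearest to ZAT6 were AT1G80450, annotated as a VQ motif protein (0.0746), and AT1G15430 (0.120). Nearest to BHLH32 were AT4G34770, an auxin-responsive SAUR gene also named SAUR1 (0.0860), and AT3G23080 (0.0942), which fell by 1.49 ± 0.10 and 1.39 ± 0.08. Nearest to WRKY42 were MIA40 (0.0735) and AT2G25420 (0.0828), and nearest to MYB62 were AHP2 (0.233) and AT5G49500 (0.297). Within a distance of 0.5 there were 323 genes around WRKY75, 232 around WRKY6, 117 around WRKY45, 675 around ZAT6, 410 around BHLH32, 3930 around WRKY42 and 81 around MYB62. The 6 libraries form 2 groups, so a short distance largely means a like difference between them. Among the 7 genes themselves the closest pair was WRKY75 and WRKY6, at 0.490, and WRKY45 and BHLH32 were farthest apart, at 4.52.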

How the data were processed

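RNA of whole seedlings was sequenced from 6 libraries made with a directional kit, per the labels' protocols. The submitters' processing notes name CASAVA 1.4, STAR 2.5.3a, StringTie 1.3.3b and the build TAIR10. The sources used here do not say which of these counted, nor name the annotation and strand setting. The authors deposited raw counts per gene identifier in 27080 rows. Of these, 280 identifiers with 6 digits repeated the counts of their 5-digit row and were left out, and 26505 of the remaining 26800 matched a RefSeq locus tag of TAIR10.1, the source of names, coordinates, exon lengths and sequences.

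Counts were tested in R 4.3.3 with edgeR 4.0.16 (filterByExpr, TMM, glmQLFit and glmQLFTest, group as the only term, all 6 libraries), with Benjamini-Hochberg adjustment over 22818 genes and calls at 0.05. Standard errors were taken as |log2 fold change| over the root of the F statistic. CPM per kilobase used the union of RefSeq exons. Ratios of counts used CPM plus 0.1 and an exact permutation test. Profiles used log2(CPM + 0.5). The fit was tested on simulated data. Intervals and bounds from counts cover counting error only. 1 count was worth 0.0165 to 0.0245 CPM.

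The 7 genes and the lists (86 entries, 85 with a row) were chosen with earlier results of these data known. Named were all 7 genes, all published targets, from each list the called gene of largest change each way with at least 1 CPM, and the 2 nearest profiles of each gene. Other list genes with values in the text were added after their values were seen. Alternatives were DESeq2 1.42.0 (size factors or Wald test), limma-voom (limma 3.58.1), no filter, 5 CPM in 3 libraries, leaving out libraries in turn, a replicate block, no organelle genes, an adjusted p under 0.01, glmTreat (1.5-fold) and, for ratios, 1 CPM added. Python 3.11.15 with matplotlib 3.10.9 drew the figures.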

Additional observations from a re-analysis of the deposited data

How the results depend on the processing

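In each alternative run, 4 of the 7 genes rose and 1 fell, with log2 fold changes without 1 library of 1.54 to 1.66 (WRKY75), 1.291 to 1.504 (WRKY6), 2.30 to 2.48 (WRKY45), 1.03 to 1.15 (ZAT6) and −1.47 to −1.33 (BHLH32). WRKY42 and MYB62 were called in none of the alternatives that gave each a value, and both had none under the filter of 5 CPM in 3 libraries. The ratio of WRKY75 to WRKY45 differed by −0.86 to −0.66 and that of WRKY6 to WRKY42 by 1.504 to 1.795 on the log2 scale without 1 library.

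Counts in the lists moved more, and the causes were not tested beyond the stricter thresholds. Under the threshold of 0.01 and under glmTreat, both stricter by construction, 4 group IIc WRKY genes rose, 1 ZAT or AZF gene fell and 1 target fell. Under glmTreat 0 group IIb WRKY genes rose, and in the BHLH32 module 1 rose and 1 fell. With 5 CPM in 3 libraries, where fewer were tested, 1 ZAT or AZF gene fell. Replicate numbers share only a label: deviations of same-numbered libraries correlated at 0.031, −0.026 and −0.0145. With the replicate number as a block 4 group IIc WRKY genes rose, 1 ZAT or AZF gene fell and 1 gene of the BHLH32 module fell, and LOG3 and PPCK2 lost their calls, at −1.52 and 0.48 on the log2 scale, while 28.4% of all genes were called. Without 1 library, 1 to 2 targets fell, and 0 to 1 gibberellin genes rose. CAT2 turned positive, at 0.26 with limma-voom, 0.33 with the block and 0.71 without wild type 3, and it ranged from −2.20 to 0.71 without 1 library. Over the named genes and their alternatives, 583 fold changes kept their direction and side of the threshold, 15 lost the call, 3 gained it and 3 reversed. Few counts limit MYB62, LOG4 and other such genes, and the wild-type libraries of MYB62 were also uneven.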

Other observations

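Gibberellin synthesis is a pathway tied to MYB62. Of 8 genes tested, 2 fell and 0 rose by edgeR's quasi-likelihood test, against 19.4% and 21.4% of all genes tested. With 25% called against 40.9% of all genes tested, the list was not above the background. At an unadjusted p under 0.05, by DESeq2 and by limma-voom 0 were higher as well, and the median log2 fold change was −0.16. GA20OX2, a late enzyme of bioactive gibberellin synthesis, went from 7.23 ± 0.926 to 2.45 ± 0.300 CPM (−1.56 ± 0.16). GA2, an early enzyme that makes ent-kaurene, went from 11.8 ± 0.789 to 5.43 ± 0.386 CPM. GA3, which oxidises ent-kaurene, had 1822, 840 and 447 counts in wild type and 1484, 1436 and 1394 in vih1vih2, and was called higher, at 0.90 on the log2 scale, without wild type 1. GA3OX1, which makes the active hormone, was at 11.3 ± 4.48 and 9.11 ± 0.802 CPM and not called.

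Some genes of the lists had uneven counts within a group. AT2G41130, a list gene of the BHLH32 module, had 759, 61 and 686 counts in wild type. LHL2 had 2990, 1025 and 1816 counts in wild type and 2750, 866 and 2192 in vih1vih2. GA1 had 30, 26 and 0 counts in wild type, the same library in which MYB62 had none.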
